A study of Mus musculus with 2 samples.

Results

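The cells described here are the oligodendrocyte precursor cells (OPCs) in single-cell ATAC-seq of sorted cells with a nuclear GFP tag, taken from mouse mediobasal hypothalamus at postnatal day 8. They were chosen as every cell that the authors' deposited annotation names OPC. This gave 578 of 22285 cells, with 304 of 8948 in the control library and 274 of 13337 in the Nfia/b/x-deficient library. Control mice carried Rax-CreER and the reporter CAG-lsl-Sun1-GFP, and the deficient mice carried these and also lox/lox alleles of Nfia, Nfib and Nfix. Both groups thus share the Cre driver and the reporter, and each is 1 library with no replicate. Rax marks tanycytes, so the sort is aimed at tanycytes and their GFP-positive progeny, and OPCs without the GFP label are outside it. Whether the sorted OPCs descend from tanycytes was not tested here. The number of animals per library and the time at which Cre was induced are not given in the sources used here.

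OPCs are the dividing glial progenitors that give rise to the myelinating oligodendrocytes of the brain and persist into adult life. Their identity rests on the transcription factors OLIG1, OLIG2 and SOX10, and they carry the growth factor receptor PDGFRA and the surface proteoglycan CSPG4. Tanycytes are radial glia-like cells of the wall of the third ventricle that can give rise to other glia and to neurons, and NFIA, NFIB and NFIX are transcription factors known for switching on glial genes in neural progenitors. The comparison of the libraries asks how the sorted cells differ between control mice and mice with lox/lox alleles of these factors.

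Single-cell ATAC-seq records, for each nucleus, the stretches of chromatin that the Tn5 transposase can cut. The matrix covers 107377 regions, and each entry marks a region as present in a cell, which is called a detection below. A level is the number of detections in a region per 1000000 detections of the cells pooled, and log2 ratios add 1 per 1000000 to each level. Regions are known by number alone, with neither a gene nor a position beside it. The label therefore could not be checked at Olig1, Olig2, Pdgfra, Cspg4 or Sox10, nor the deletion at Nfia, Nfib or Nfix, and each group rests on its label. Genotypes were not tested against each other, since each has a single library. All intervals are exact 95% intervals that cover counting error only. Spread among cells or animals is not part of them.

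OPCs were among the shallower cells of both libraries. Control OPCs had 1023 to 14239 detections per cell with a median of 3380, and deficient OPCs had 978 to 13205 with a median of 3432. Over all cells, the control library had a median of 4550 and the deficient one of 4042. Pooled, the OPCs held 1278788 control and 1110112 deficient detections. A median region was found in 1.97% of control and 1.82% of deficient OPCs. Only 5 regions were found in at least 50% of control OPCs, and only 4 in at least 50% of deficient OPCs. The most widespread, region 43752, was found in 62.5% of control OPCs (56.8 to 68.0%) and 65.7% of deficient OPCs (59.7 to 71.3%). It was no mark of OPCs, since 84.9% of control and 81.0% of deficient cells of the other types had it too, and its log2 ratio of OPCs over other cells was 0.0087 and -0.11. Region 39947 came next, in 53.6% of control and 50% of deficient OPCs, against 61.2% and 52.2% of other cells. The libraries shared 204 cell barcodes. Of these, 5 belonged to control OPCs and 3 to deficient OPCs, and none was named OPC in both.

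Regions with high levels in the OPCs of one library were mostly high in the OPCs of the other. OPC regions were defined within 1 library as regions with at least 20 detections in its OPCs and a level at least 2-fold above that of all its other cells. The control library gave 2047 such regions, 10.5% of the 19448 regions with enough detections, and the deficient library gave 1904, 11.2% of 16929. The type was named in these same cells, so these numbers describe it and test nothing. The threshold cut through a continuum: in the control library 236 regions lay just inside it, at log2 ratios of 1 to 1.1, and 263 just outside it, at 0.9 to 1. The numbers were 234 and 274 in the deficient library.

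Measured in the library that had no part in the choice, these regions were again high in OPCs. The authors named the OPCs of both libraries, which favours such a result, so it describes the label and does not test it. Of the 2047 regions chosen in control cells, 2016 (98.5%) had a higher level in deficient OPCs than in other deficient cells, and 1494 (73.0%) were at least 2-fold higher. Over all 19448 regions, 10.5% were 2-fold higher there. Their median log2 ratio was 1.55 in the control library, where they were chosen, and 1.42 in the deficient library, where that of all 19448 regions was 0.032. Of the 1904 regions chosen in deficient cells, 1878 (98.6%) were higher and 1265 (66.4%) were at least 2-fold higher in control OPCs, against 9.09% at 2-fold over all 16929 regions. The median log2 ratio of this set was 1.53 where chosen and 1.33 in the control library. Both choices shared 1039 regions, 50.8% of the control and 54.6% of the deficient set. Single OPC regions were found in few cells. Over the shared regions the median was 11.2% of control OPCs, with 6.58% for the lowest and 38.8% for the highest region. It was 10.9% of deficient OPCs, with 7.30% and 38.3%, while the same regions were found in a median of 4.15% and 3.48% of other cells.

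The 2 regions with the highest ratios of OPCs over other cells were rarely found in tanycytes. Their choice favoured this, since it used the ratio in both libraries and tanycytes were most of the other cells. Region 50645 was found in 63 of 304 control OPCs (20.7%, 16.3 to 25.7%) and 47 of 274 deficient OPCs (17.2%, 12.9 to 22.1%). Among tanycytes it was found in 0.643% of control and 0.378% of deficient cells. Astrocytes had it in 4.31% of control and 2.69% of deficient cells, and neurons in 3.17% and 0.833%. By its choice region 50645 was high in the OPCs of both libraries, whose intervals overlap. Its log2 ratio to all other cells was 4.15 among control and 4.37 among deficient cells. Region 11405 was found in 42 control OPCs (13.8%, 10.1 to 18.2%) and 53 deficient OPCs (19.3%, 14.8 to 24.5%). It was found in 0.438% of control and 0.278% of deficient tanycytes. In neurons the share with region 11405 was 1.93% and 1.83%, and in astrocytes 0.615% and 0.448%. Region 50645 was also found in 3 of 63 control proliferating tanycytes (4.76%, 0.993 to 13.3%) and 2 of 1033 deficient ones. Astrocytes thus had more of region 50645 than neurons did, and less of region 11405.

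**Figure D1:**
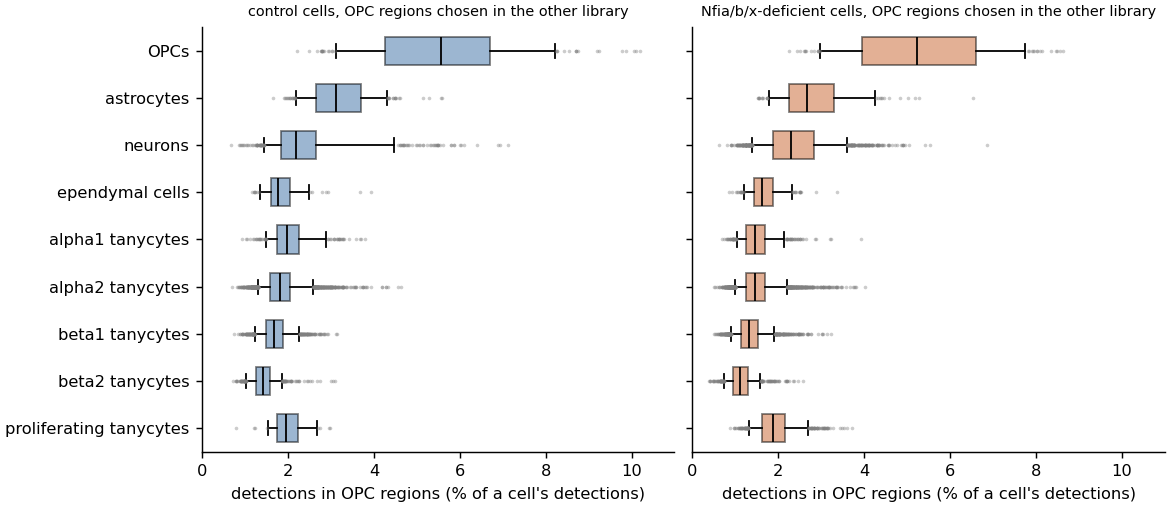
Percent of each cell's detections that fall in OPC regions, by cell type, for control cells (left) and Nfia/b/x-deficient cells (right), with the regions chosen in the other library. Boxes span the quartiles with the median as a line, whiskers run from the 5th to the 95th percentile and dots are the cells beyond them. OPCs had medians of 5.57% and 5.24%, above the median of every other type, with astrocytes next.

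Cell by cell, the OPC regions chosen in the other library held a larger part of the detections in most OPCs than in most other cells. Since the authors' names picked the OPCs in both libraries, this too describes the label and is no test of it. In the control library they held 2.20 to 10.2% of an OPC's detections, with a median of 5.57%, while the median of other cells was 1.79%. In the deficient library the range was 2.25 to 8.64% with a median of 5.24%, and the median of other cells was 1.53%. The 2 libraries were measured on different sets, so their percentages are not compared. Of control OPCs 291 of 304 (95.7%, 92.8 to 97.7%) exceeded the 95th percentile of the other control cells, and of deficient OPCs 259 of 274 (94.5%, 91.1 to 96.9%) did so. The shares were 84.7% and 88.2% when cells below 2000 detections were left out, the others thinned to 2000 and OPC regions chosen again. That left 242 control and 229 deficient OPCs, and 426 regions chosen in control and 407 in deficient cells. Astrocytes had the next highest medians, 3.12% and 2.67%, and beta2 tanycytes, a type of the ventricular floor, the lowest, 1.41% and 1.11%. The regions were chosen against cells that were mostly tanycytes, which favours low values in tanycytes.

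Astrocytes and neurons were the types in which OPC regions were most open after OPCs themselves. Regions chosen in the control library took 48.2 of every 1000 detections in deficient OPCs (47.8 to 48.6), 26.7 in astrocytes and 23.5 in neurons. In deficient tanycytes they took from 11.7 in beta2 to 15.5 in alpha2 cells outside the proliferating class, where they took 19.0. Regions chosen in the deficient library took 49.1 of every 1000 detections in control OPCs (48.8 to 49.5), 30.3 in astrocytes and 23.3 in neurons, and 14.6 to 20.3 in tanycyte subtypes. Astrocytes stood above neurons, and both above tanycytes and ependymal cells, under both choices. Tanycytes were most of the other cells that an OPC region had to exceed, so the choice itself favoured low levels in them.

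**Figure D2:**
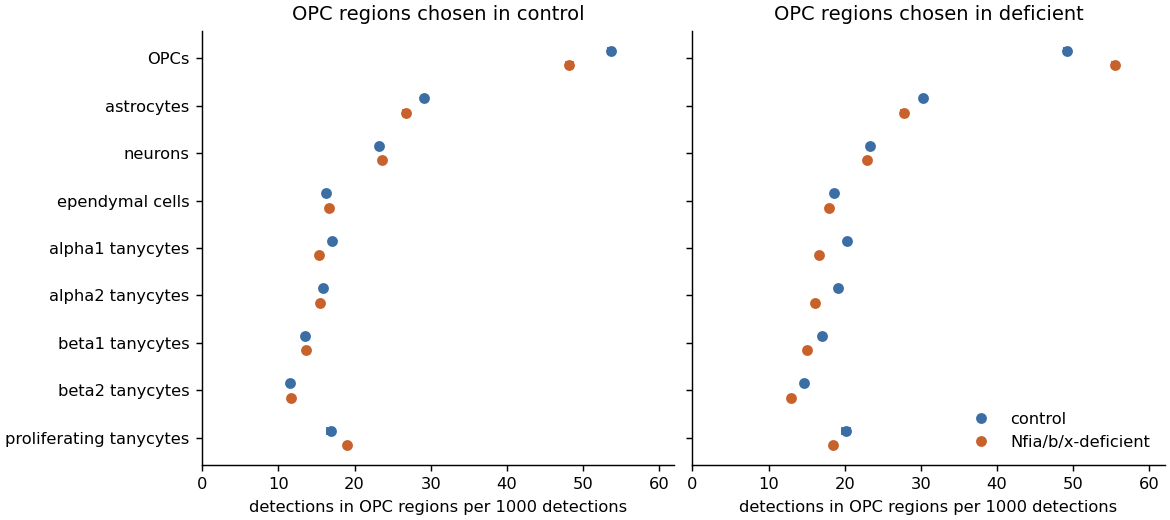
Detections in OPC regions per 1000 detections, by cell type and library, for regions chosen in control cells (left) and in deficient cells (right), with Poisson intervals that are mostly narrower than the points. In each panel OPCs of the library used for the choice are the highest point by construction, and OPCs of the other library come next at 48.2 and 49.1.

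Among the 1039 shared OPC regions, the type with the next highest level was most often the astrocyte, a glial cell like the OPC. This was so for 572 regions (55.1%) among control and 501 (48.2%) among deficient cells, among the 7 other types left after proliferating tanycytes, with 63 control cells, were set aside. Neurons came next for 299 (28.8%) and 386 (37.2%). Alpha2 tanycytes, the most numerous type, were next for 8 and 2 regions. Alpha1 tanycytes were next for 67 and 30, with median levels of 6.93 and 6.46 per 1000000, close to those of alpha2. Types were not brought to equal depth here: control alpha2 tanycytes held 28371961 detections, astrocytes 1755428 and ependymal cells 938429. Levels of a shallower type carry more counting error, and its effect on these counts was not tested. A low place for tanycytes was favoured by the choice, since they were most of the other cells that OPC regions had to exceed. The median level of a shared region was 26.6 per 1000000 in control OPCs, 13.1 in astrocytes, 9.57 in neurons and 6.94 in alpha2 tanycytes. Deficient cells had medians of 27.0, 11.5, 10.2 and 6.71. Only 226 of the 1039 regions were at least 2-fold above each of those 7 types in both libraries, so most OPC regions were shared with some other type to within 2-fold.

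Whole profiles also put astrocytes first, with neurons next by a narrow margin in control cells. Each type was reduced at random to 900000 detections, and 30019 regions found in at least 1000 cells were compared. Control OPCs correlated most with control astrocytes among the other types of their library (Pearson r = 0.880 across regions, which share libraries and are not independent replicates). Control neurons followed at 0.818, close to ependymal cells at 0.817 and alpha2 tanycytes at 0.814, and beta2 tanycytes were last at 0.761. Deficient OPCs had r = 0.861 with deficient astrocytes, 0.840 with neurons, 0.827 with proliferating tanycytes and 0.754 with beta2 tanycytes. OPCs of the 2 libraries had r = 0.901 with each other, above the value of OPCs with any other type in either library. Detections were spread about as widely in OPCs as in most types. At 900000 detections, 12872 regions held the first 50% of them in control and 12998 in deficient OPCs, and the other types ranged from 12191 in control beta2 tanycytes to 14579 in deficient ependymal cells.

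Some regions common in tanycytes were scarce in OPCs. Of 13505 regions for which the level in other cells predicted at least 50 OPC detections, 183 (1.36%) were at least 2-fold lower in OPCs in both libraries. Their summed level per 1000 detections was 2.07 in OPCs of the control and 1.69 in OPCs of the deficient library, against 2.90 and 2.77 in astrocytes, 3.27 and 3.31 in neurons and 5.64 and 5.18 in all tanycytes. Beta1 tanycytes had the highest levels, 6.41 and 5.92. The choice fixed the direction, and with it the high level in tanycytes, which were most of the other cells. Astrocytes and neurons lay between OPCs and tanycytes. Region 30305 was found in 8 control OPCs (2.63%, 1.14 to 5.12%) and 6 deficient OPCs (2.19%, 0.808 to 4.71%), and in 17.3% of control and 13.1% of deficient tanycytes. Region 41216 was found in 5 control OPCs (1.64%) and 8 deficient OPCs (2.92%), and in 12.7% and 16.0% of tanycytes. Both were scarce in the OPCs of either library and common in alpha and beta1 tanycytes.

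OPCs took a smaller part of the deficient library, and the size of that difference depended on which cells they were counted against. Among all cells, OPCs made up 3.40% of the control library (3.03 to 3.79%) and 2.05% of the deficient library (1.82 to 2.31%), with a ratio of 0.605 (0.512 to 0.714). The deficient library held 2520 neurons and 1033 proliferating tanycytes and the control library 882 and 63, and larger shares of these lower every other share. Without both classes the OPC share was 3.80% of 8003 control cells (3.39 to 4.24%) and 2.80% of 9784 deficient cells, with a ratio of 0.737 (0.624 to 0.871). For every tanycyte there were 0.0416 OPCs in control and 0.0273 in deficient cells, an odds ratio of 0.655 (0.552 to 0.776). Among cells other than tanycytes they were 18.5% and 8.35%. For every neuron there were 0.345 OPCs in control and 0.109 in deficient cells, an odds ratio of 0.316 (0.262 to 0.379).

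Set against astrocytes, the OPC share was not lower in the deficient library. There were 304 OPCs and 325 astrocytes in the control library and 274 OPCs and 223 astrocytes in the deficient one. OPCs made up 48.3% (44.4 to 52.3%) and 55.1% (50.6 to 59.6%) of both types together. This was 0.935 and 1.23 OPCs per astrocyte, an odds ratio of 1.31 (1.03 to 1.68). The ratio of the shares was 1.14, and its interval, which treats OPC counts as Poisson, was 0.965 to 1.35. The first interval, added after the shares were seen, leaves out 1 and the second includes it. Both cover counting error in 1 library per genotype, so neither can decide whether the genotypes differ. For every ependymal cell there were 2.29 control and 1.03 deficient OPCs, an odds ratio of 0.453 (0.344 to 0.594). The sort and the authors' names set these shares, and the variation between mice was not measured. Fewer cells of 1 type and more of another cannot be told apart in such shares.

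**Figure D3:**
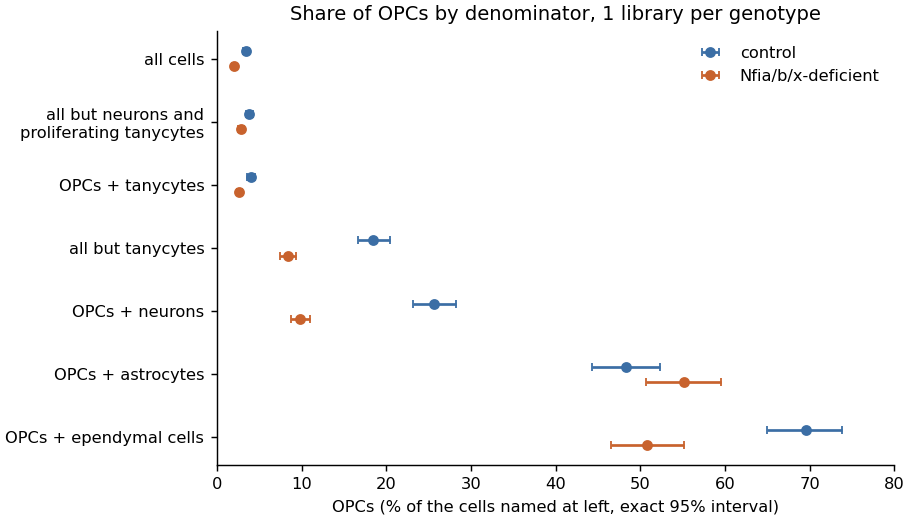
OPCs as a percent of 7 sets of cells, in the control (blue) and Nfia/b/x-deficient (orange) library, with exact 95% intervals. The deficient library lies lower in every set except OPCs with astrocytes, where it is 55.1% against 48.3% and the intervals overlap.

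Within OPCs, few single regions differed between the genotypes by 2-fold. Of 14074 regions with at least 50 OPC detections over both libraries, 45 (0.32%) were at least 2-fold higher and 110 (0.782%) at least 2-fold lower in the deficient library. Over these regions the log2 ratio, deficient over control, had a median of -0.0087, with 5th and 95th percentiles of -0.58 and 0.53. Counting error is large at these depths, and the shares of regions past 2-fold rested on the sparsest regions. With a minimum of 100 detections, 0.0495% of 4044 regions were 2-fold higher and 0.0495% 2-fold lower. With a minimum of 25, 1.82% of 27405 were higher and 2.94% lower. With a pseudocount of 5 per 1000000 the shares were 0.0995% and 0.398%, and among OPCs whose nearest type profile was also OPC they were 0.167% and 0.438%. The surplus of lower over higher regions was not seen at the minimum of 100, where too few regions were past 2-fold to judge it. The threshold had 38 regions just outside it and 20 just inside it on the higher side, within 0.1 of a log2 ratio of 1, and 52 and 32 on the lower side.

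Region 58215 had the highest ratio. It was found in 13 of 304 control OPCs (4.28%, 2.30 to 7.20%) and 38 of 274 deficient OPCs (13.9%, 10.0 to 18.5%), a log2 ratio of 1.66. Its level was higher in OPCs than in other cells in both libraries, with log2 ratios of 2.07 and 2.30. Neurons had region 58215 in 2.49% of control and 6.79% of deficient cells, and tanycytes in 0.739% and 1.90%. Region 29876 was found in 18 control OPCs (5.92%, 3.55 to 9.20%) and 47 deficient OPCs (17.2%, 12.9 to 22.1%), a log2 ratio of 1.52. The shares with region 29876 in tanycytes were 5.89% of control and 13.1% of deficient cells, and in neurons 5.44% and 15.0%. Both regions were higher in the deficient library in OPCs, neurons and tanycytes alike.

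Region 56551 had the lowest ratio. It was found in 48 control OPCs (15.8%, 11.9 to 20.4%) and 10 deficient OPCs (3.65%, 1.76 to 6.61%), a log2 ratio of -1.95. In neurons its levels per 1000000 were 19.4 (control) and 19.0 (deficient), in beta1 tanycytes 17.6 and 16.7, and in all tanycytes 24.2 and 18.7. Astrocytes had region 56551 at 39.3 (30.6 to 49.7) and 20.3 (12.9 to 30.5). Region 77669 was found in 41 control OPCs (13.5%, 9.86 to 17.8%) and 9 deficient OPCs (3.28%, 1.51 to 6.14%), a log2 ratio of -1.86. In astrocytes its level was 19.9 and 22.1 per 1000000, while in alpha2 tanycytes it was 17.6 and 7.06 and in neurons 9.83 and 2.54. Region 56551 was thus lower in deficient OPCs and about level in neurons, and region 77669 lower in OPCs and neurons and about level in astrocytes. Whether the ratios differ between types was not tested. These 4 regions are the extremes of 14074, and such a choice overstates their ratios. In cells thinned to 2000 detections, the interval included 0 for 3 of them: the log2 ratio was 1.24 (-0.17 to 2.97) for region 58215, 1.12 (-0.12 to 2.59) for region 29876 and -1.11 (-3.04 to 0.43) for region 77669. That of region 56551 was -2.32 (-4.44 to -0.89).

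As a group, the 110 lower regions had 4.01 detections per 1000 in control OPCs and 1.69 in deficient OPCs. Their choice fixed this direction in OPCs. In the other types, whose cells had no part in the choice but came from the same 2 libraries, the levels were 3.43 and 2.66 in astrocytes, 2.44 and 1.54 in neurons, 3.24 and 2.06 in alpha2 tanycytes, 2.75 and 1.95 in beta2 tanycytes and 2.79 and 2.27 in ependymal cells. The median log2 ratio of these regions was -0.38 in astrocytes, -0.77 in neurons and -0.71 in all tanycytes, where all 14074 regions had medians of -0.033, -0.0029 and 0.013. The 45 higher regions had 0.750 detections per 1000 in control OPCs and 1.70 in deficient OPCs. In astrocytes the 45 regions took 0.824 and 0.828, in ependymal cells 0.698 and 0.693, in neurons 0.802 and 1.14 and in all tanycytes 0.784 and 0.918. The lower regions were therefore lower in the deficient library in these other types too, while the higher ones were higher in neurons and tanycytes and nearly level in astrocytes and ependymal cells.

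**Figure D4:**
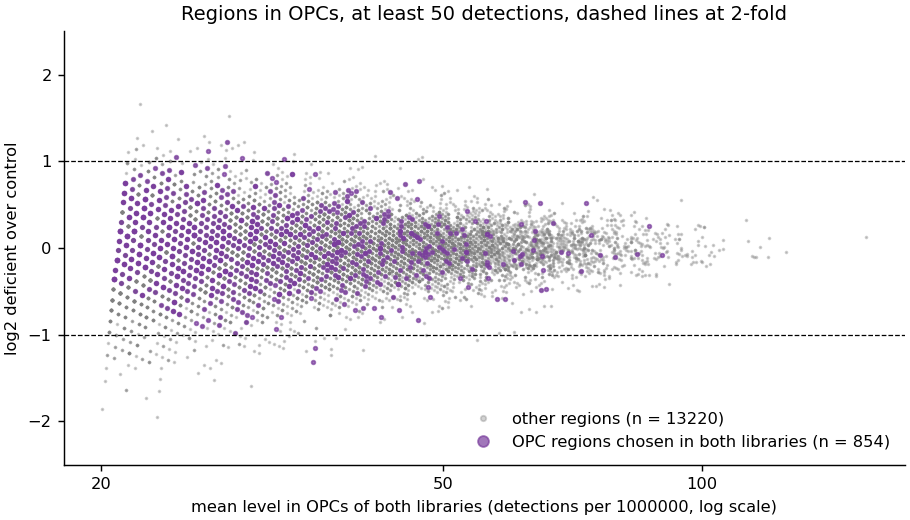
Log2 ratio of deficient over control against the mean level in OPCs for the 14074 regions with at least 50 OPC detections, with the 854 tested OPC regions shared by both libraries in purple and dashed lines at 2-fold. Ratios spread most at low levels, and regions past 2-fold are rare above the lowest levels.

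OPC regions chosen in both libraries had similar levels in control and deficient OPCs, which their choice favours. The 1039 shared regions took 30.8 of every 1000 detections in control OPCs (30.5 to 31.1) and 31.6 in deficient OPCs (31.3 to 32.0), a log2 ratio of 0.039 (0.018 to 0.060). Of the 854 with enough detections, 5 (0.585%) were at least 2-fold higher and 2 (0.234%) at least 2-fold lower, against 0.32% and 0.782% of all regions tested. Their median log2 ratio was 0.016, with 442 above 0 and 412 below 0. Of the 226 regions 2-fold above each of 7 other types, 184 could be compared, of which 3 were 2-fold higher and 0 were 2-fold lower, with a median log2 ratio of 0.057. A set chosen in 1 library is favoured there: the 2047 regions chosen in the control library had a log2 ratio of -0.15 (-0.17 to -0.14) and the 1904 chosen in the deficient library 0.17 (0.16 to 0.19). The opposite signs follow the library of the choice. In tanycytes the shared OPC regions took 7.88 and 7.70 of every 1000 detections, and in astrocytes 16.2 (16.0 to 16.4) and 14.8 (14.5 to 15.0).

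At equal depth, a smaller share of regions was 2-fold lower in the deficient library in OPCs than in neurons or 4 tanycyte subtypes. The other types were reduced once, at random, to the detections of the OPCs in each library, which could be done for 6 types. Regions 2-fold lower in the deficient library were 0.361% in astrocytes, 0.782% in OPCs, 1.27% in beta2 tanycytes, 1.72% in neurons, and 1.75% in beta1, 2.07% in alpha2 and 2.17% in alpha1 tanycytes. Regions 2-fold higher were 0.116% in astrocytes, 0.253% in beta2 tanycytes, 0.315% in beta1, 0.32% in OPCs, 0.431% in alpha1, 0.509% in alpha2 tanycytes and 1.22% in neurons. Among these 7 types OPCs thus ranked second lowest for lower regions and in the middle for higher ones. These shares have no replicate, and which neighbours in the order differ was not tested.

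OPCs varied widely among themselves, and deeper OPCs had less of their detections in OPC regions. Each library's OPCs were put into 4 depth groups of nearly equal size. In the control library the median percent of detections in OPC regions fell from 6.72% in the shallowest group (1023 to 2191 detections) to 6.07, 4.91 and then 3.93% in the deepest (5670 to 14239 detections). In the deficient library the 4 groups had 6.68, 5.82, 4.87 and 3.81%. Spearman's rho between depth and this percent was -0.63 over 304 control and -0.58 over 274 deficient OPCs, given as a description, since the cells of a library share that library. After thinning to 2000 detections per cell, rho with the depth before thinning was -0.57 over 242 and -0.51 over 229 OPCs. Random thinning leaves the expected percent of a cell unchanged, so these values are no separate check. Tanycyte regions, chosen like OPC regions for all tanycytes together, moved the other way. They held a median of 0.177% of detections in the shallowest and 0.603% in the deepest group of control OPCs, and 0.326% and 0.723% in deficient OPCs. Neuron regions fell with depth, from 3.58 to 2.23% in control and from 5.23 to 3.84% in deficient OPCs, as did astrocyte regions. All these sets were chosen in the other library, so their percentages are not compared between libraries.

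**Figure D5:**
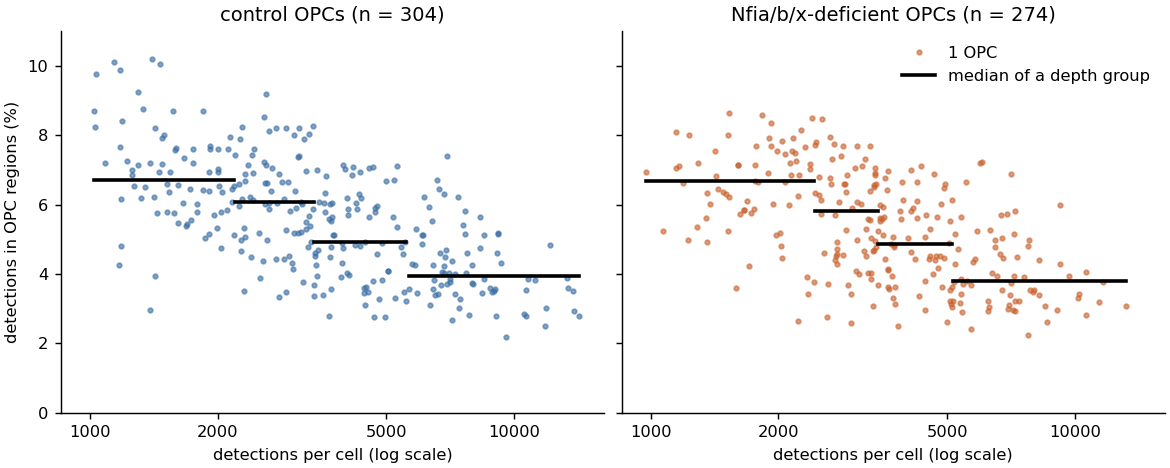
Percent of detections in OPC regions chosen in the other library against detections per cell (log scale), 1 point per OPC, with a black line at the median of each depth group. The medians fall from 6.72 to 3.93% in control OPCs (left) and from 6.68 to 3.81% in deficient OPCs (right).

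Deeper OPCs were also less often placed with OPCs when each was given to the nearest of the 9 type profiles built from the other cells of its library. Of control OPCs 232 of 304 (76.3%, 71.1 to 81.0%) were nearest to the OPC profile, and of deficient OPCs 209 of 274 (76.3%, 70.8 to 81.2%). By depth group this share was 98.7, 85.5, 72.4 and 48.7% of control OPCs, and 92.8, 89.7, 76.5 and 46.4% of deficient OPCs. The remaining control OPCs were nearest to alpha2 tanycytes in 39 cells, astrocytes in 20, neurons in 7, beta1 tanycytes in 4 and beta2 tanycytes in 2. Those of the deficient library were nearest to neurons in 21, proliferating tanycytes in 16, alpha2 tanycytes in 15, beta2 tanycytes in 6, beta1 tanycytes and astrocytes in 3 each and alpha1 tanycytes in 1. The 39 control cells had a median depth of 7141 detections and a median of 3.42% in OPC regions, above the 1.81% of alpha2 tanycytes. The 15 deficient cells had 7221 detections and 3.00%, above the 1.46% of alpha2 tanycytes. Whether such barcodes hold more than 1 nucleus was not tested. The profiles were not brought to equal depth: control OPCs held 1278788 detections and control alpha2 tanycytes 28371961. Proliferating tanycytes held 320785 control and 5063545 deficient detections. The types named as nearest are therefore not compared between the libraries, and the effect of profile size was not tested.

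A fall with depth was not particular to OPCs. In each of 4 other types the percent in the type's own regions fell with depth as well, with rho of -0.62 in control and -0.46 in deficient astrocytes, -0.49 and -0.59 in neurons, -0.56 and -0.46 in ependymal cells and -0.36 in beta2 tanycytes of either library. OPC regions in alpha2 tanycytes went the other way, with rho of 0.20 and 0.19. Without the deepest 25% of OPCs, and with OPC regions chosen again, the share of OPCs above the 95th percentile of other cells was 99.1% (control) and 97.6% (deficient). The deepest OPCs had the lowest percentages, so leaving them out favours a higher share.

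Regions of astrocytes and neurons were found more in OPCs than in the remaining cells, and those of beta2 tanycytes less. Each library was scored on regions chosen in the other. Control cells were scored on 4914 neuron and 1055 ependymal regions, and deficient cells on 6966 and 250. The percentages are therefore not compared between the libraries. Astrocyte regions held a median of 2.27% of detections in control OPCs and 2.52% in control astrocytes, against 1.25% in the remaining control cells. Deficient cells had medians of 2.19, 2.28 and 0.831%. OPCs thus stood near astrocytes on astrocyte regions when depth was not matched. At or above the lower quartile of astrocytes were 170 of 304 control and 186 of 274 deficient OPCs. This percent fell with depth in both types, and OPCs were shallower. Their median depths were 3380 and 3432 detections, against 4742 and 4615 in astrocytes. The deepest OPC groups had 1.88 and 1.74%, below the astrocyte lower quartiles of 2.16 and 1.83%. Neuron regions held 2.90% in control OPCs, 6.52% in control neurons and 1.05% in the remaining control cells. In the deficient library they held 4.45% in OPCs, 6.49% in neurons and 2.44% in the rest. Beta2 tanycyte regions held 1.88 and 1.47% in OPCs, below the 7.81 and 6.55% of beta2 tanycytes and the 2.23 and 1.76% of the remaining cells, and 1 control and 0 deficient OPCs reached the lower quartile of that type. Ependymal regions held 1.10% in control OPCs, 2.01% in control ependymal cells and 1.09% in the rest. Deficient cells had 0.211, 0.615 and 0.234%, so OPCs were near the remaining cells on these regions.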

How the data were processed

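The labels' protocols state that nuclei of sorted cells went through a droplet ATAC kit and the Cell Ranger ATAC pipeline with default settings. The submitters' processing notes name mm10, and as tools MACS2, Seurat, Cell Ranger 3.1 and Signac 0.2.5, without their roles. Region calling, cell filters, doublet handling and the naming of types are not given in the sources used here. No doublet caller was run. The authors deposited a pattern matrix and an annotation with 1 of 9 types per cell. Per the file headers the matrix holds no values, only presence, which saturates at 1 per cell, so widely open regions are understated. Annotation lines were taken to follow the matrix's order of cells.

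For each type in each library, detections per region were added up and scaled by the total. The members and lists were chosen with earlier results of these data known. The named regions are the 2 highest and 2 lowest between genotypes in OPCs and against other cells, and the 2 found in most OPCs. Lowest regions against other cells needed 50 expected OPC detections, the others 50 observed. Shares have Clopper-Pearson, sums Poisson and ratios conditional binomial intervals, and OPCs per cell of another type have the exact conditional interval of the odds ratio, which was added after the shares were seen. Nearest profiles used the log likelihood of a cell's detections, the cell itself left out, with profiles of unequal depth. Marker genes and sequences were not analysed here. The ratio and the choice of regions were tested on simulated data. Known ratios were placed only in regions with at least 100 expected OPC detections, while regions were compared from 50. The share of unchanged regions that pass 2-fold by counting error is not given here. Scripts used matplotlib 3.10.9, pandas 2.3.3, scipy 1.17.1 and numpy 2.4.6 under Python 3.11.15.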

Additional observations from a re-analysis of the deposited data

How the results depend on the processing

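No paired analysis was possible because each genotype has 1 library and the labels share only 1 replicate number. Over 15 alternatives, 105 values were recomputed, of which 66 stayed within their interval or within 1.5 times and 39 moved. The alternatives without the deepest 25% of OPCs and without shared barcodes were chosen after seeing the data, and the second moved 0 of 13 values. Leaving out neurons and proliferating tanycytes moved the log2 ratio of the OPC share from -0.73 to -0.44. The number of OPC regions chosen in the control and deficient library was 580 and 488 at 4-fold, 496 and 420 with at least 40 detections, 426 and 407 in thinned cells, which leave out those below 2000 detections, and 1069 and 988 without the deepest 25%. The log2 ratio of control-chosen regions in OPCs was -0.13 at 4-fold and with 40 detections, -0.20 in OPCs nearest their own profile, -0.33 in thinned cells, -0.25 without the deepest 25%, -0.19 without the deepest 5%, and -0.17 with median-of-ratios and with trimmed-mean scaling. That of deficient-chosen regions was 0.20 against the mean of the other 8 types, 0.15 with 40 detections, 0.29 in thinned cells, 0.19 and 0.16 without the deepest 25% and 5%, and 0.16 with both scalings. OPCs above the 95th percentile of other cells were 98.4% of control OPCs at 4-fold, 100% and 99.5% of control and deficient OPCs nearest their own profile, 84.7% and 88.2% in thinned cells and 99.1% and 97.6% without the deepest 25%. Keeping OPCs nearest their own profile, or leaving out the deepest, favours higher shares by the choice of cells. Regions 2-fold higher and lower in deficient OPCs were 0.167% and 0.438% in OPCs nearest their own profile, 0.0995% and 0.398% with a pseudocount of 5, 1.82% and 2.94% with a minimum of 25 and 0.0495% both ways with a minimum of 100. Thinning and dropping cells leave fewer detections, so fewer regions pass a minimum; the cause of the other moves was not tested. Depth limits single regions: at the minimum of 50 detections the 4 regions named between genotypes had 50 to 65, and in thinned cells the intervals of regions 58215, 29876 and 77669 included 0.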

Other observations

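A few cells that carry other names had as much of their detections in OPC regions as a typical OPC. In the control library 13 such cells reached the OPC median of 5.57%, of which 12 were named neurons and 1 an astrocyte. In the deficient library 5 cells reached the OPC median of 5.24%, 3 neurons and 2 astrocytes. The highest had 7.13% and 6.87%. By nearest profile, 40 of 882 control neurons and 5 of 2520 deficient neurons were placed with OPCs. Astrocytes were placed there in 5 control and 8 deficient cells. The profiles differed in depth between types and libraries, so these counts are not compared between libraries.

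OPC regions often had neighbouring numbers in the matrix. Of the 2047 regions chosen in the control library, 233 (11.4%) had another OPC region as the preceding or following number, against 3.57% of all other regions. In the deficient library it was 165 of 1904 (8.67%), against 3.37%. The longest run was 4 in both libraries. Astrocyte, neuron and beta2 tanycyte regions showed the same, with 8.65, 24.4 and 23.2% in the control library against 2.40, 11.5 and 9.37% of other regions. Whether the numbers follow genome order is not stated in the labels or headers.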
